A study of Bos taurus with 15 samples.

Results

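Subcutaneous adipose tissue of dairy cows in severe negative energy balance (SNEB) was compared with that of cows in moderate negative energy balance (MNEB) at 16 weeks peripartum (wkpp). The comparison holds 6 of the 15 libraries of the series, 3 SNEB and 3 MNEB, and covers all 13896 genes of the annotation, of which 10288 had enough reads to be tested. Fat was taken from the dewlap of primiparous Prim Holstein cows. SNEB animals had received a low energy (LE) diet and MNEB animals a high energy (HE) diet since 4 weeks before calving. The study chose the cows by their energy balance at 1 wkpp, so the names SNEB and MNEB describe early lactation and not the balance at 16 wkpp. Titles of the SNEB libraries carry the mark m1 and those of the MNEB libraries the mark m2, which the labels do not explain, so that at 16 wkpp the mark and the group cannot be told apart. At 1 wkpp the marks were the other way round.

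Adipose tissue stores triacylglycerol in adipocytes, and in a negative energy balance it releases fatty acids by lipolysis. Around the adipocytes lie blood and lymph vessels, nerves, fibroblast-like progenitors that lay down the matrix, and immune cells, above all macrophages and mast cells. In whole tissue, fewer cells of a type and less RNA per cell cannot be told apart. Markers of adipocytes were found in every library. PLIN1, which coats the lipid droplet, had normalised exonic read counts of 17690, 12070 and 10930 in SNEB and 11390, 6336 and 2992 in MNEB. Normalised counts of FABP4, the fatty acid carrier of adipocytes, were between 21540 and 22170 in SNEB and were 16440, 20820 and 3450 in MNEB. ADIPOQ was not analysed here.

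Exonic gene reads numbered between 12265540 and 14855900 in the SNEB libraries and were 7538334, 2916395 and 2829688 in the MNEB libraries. Reads of synthetic spike-in RNAs made up 2.96, 8.50 and 8.14 per 1000 exonic gene reads in SNEB and 50.3, 147 and 120 per 1000 in MNEB. The MNEB mean was 16.2 times the SNEB mean, with no overlap (two-sided exact permutation test, p = 0.1, the smallest that 3 libraries against 3 allow, adjusted p = 0.15 over 6 library measures). At 1 wkpp the spike-in share was also highest in the MNEB libraries (48.1 to 405 per 1000, against 6.62 to 22.0 in SNEB). The paper lists similar total reads in both groups at 16 wkpp, with a lower share of uniquely aligned reads in MNEB. The part of alignment, of the number of gene reads and of spike-in share in the results that follow was not tested. All fold changes are relative to the gene reads of each library. Had the libraries been scaled to the spike-ins, the median log2 fold change of all genes would have been 4.00, and 9959 genes would have been called higher and 0 lower, so every gene described as lower in SNEB would then have a positive log2 fold change. How much spike-in was added to each sample is not given in the sources used here.

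**Figure D1:**
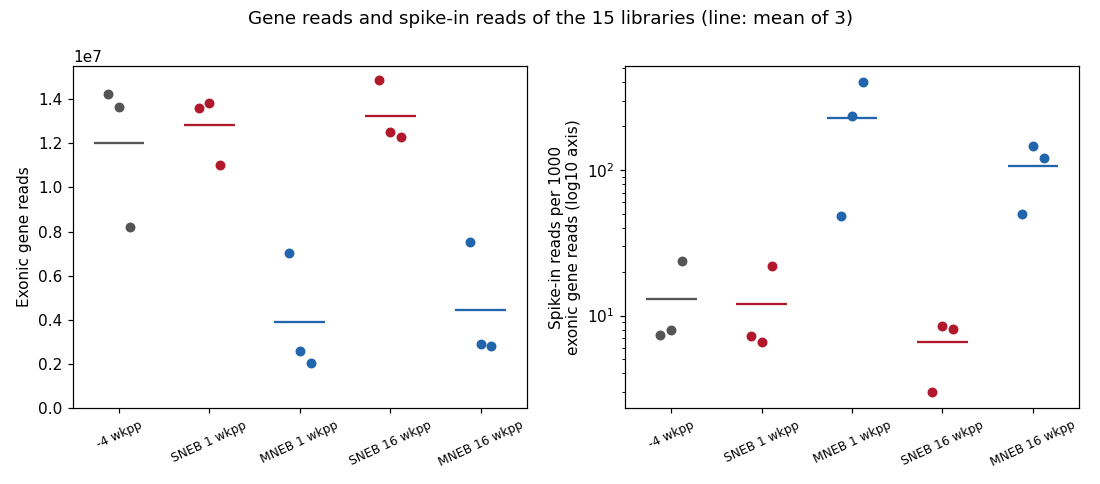
Left, exonic gene reads of each of the 15 libraries by group. Right, spike-in reads per 1000 exonic gene reads (log10 axis). Points are libraries and lines are means of 3. At 16 wkpp the MNEB libraries have 2829688 to 7538334 gene reads and 50.3 to 147 spike-in reads per 1000, all apart from the SNEB libraries.

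In the comparison of SNEB with MNEB, 545 of 10288 genes (5.3%) passed the test, which asked for an adjusted p-value below 0.01 (limma-voom, Benjamini-Hochberg) in reads on exons and again in reads on the entire gene. These genes are named called genes. Of them, 161 (1.56%) were higher and 384 (3.73%) were lower in SNEB than in MNEB. Their median log2 fold change was 1.84 for genes higher and -1.49 for genes lower, beside 0.04 for all genes tested. Groups did not overlap in exonic count for 545 called genes and for 4510 of all genes tested. The count moved with each library. It was 429 without SNEB library 3, 281 without SNEB library 2, 267 without MNEB library 1, 230 without MNEB library 2, 209 without SNEB library 1 and 113 without MNEB library 3. No called gene changed sign in any of these fits, and 89 were called in all 6 of them. Among the genes described below, these include AOC1, KIT, CD163, CSF1R, LYVE1, MMRN1, LOC504773, C1S, FBN1, FBLN5, MFAP5, SPEG, TCAP, SMTN, LMOD1, TPM1, ITGA7, ARHGEF17, EPHA2, ACTN1 and ADGRL1.

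**Figure D2:**
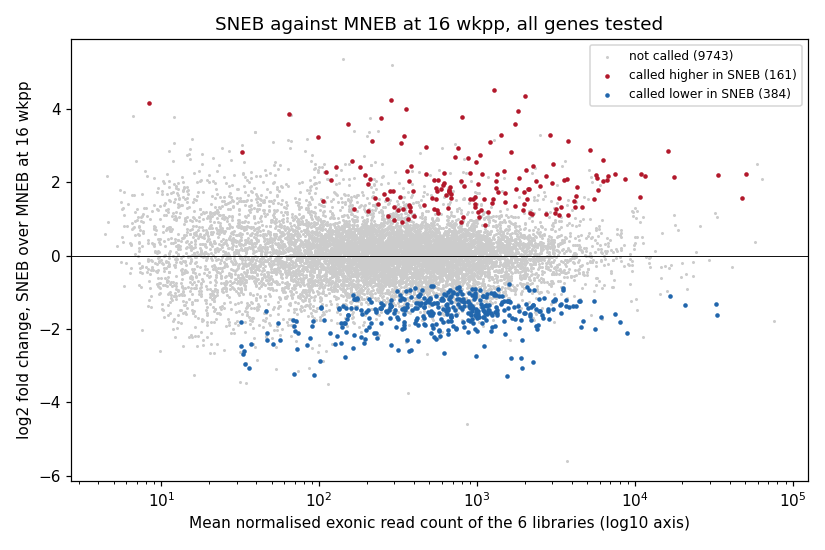
Log2 fold change of SNEB over MNEB at 16 wkpp (exon analysis, relative to gene reads) against the mean normalised exonic read count of the 6 libraries (log10 axis), 1 point per gene. The 161 genes called higher and 384 called lower lie on both sides of the median of 0.04.

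Of 26 macrophage markers, 18 were tested, 9 were called higher and 0 lower, and 18 had a positive log2 fold change, with a median of 2.72. CD163, the scavenger receptor for haemoglobin, had normalised counts of 6769, 4990 and 4117 in SNEB and 463, 640 and 509 in MNEB. Every SNEB library lay far above the MNEB libraries, and the difference was 9.84-fold (log2 fold change 3.30 ± 0.23 SE, adjusted p = 0.000244). CSF1R, the receptor through which macrophages survive, had counts of 5375, 4166 and 4708 in SNEB and 1279, 984 and 1392 in MNEB, a 3.92-fold difference (adjusted p = 0.000557). FOLR2, a folate receptor of resident macrophages, had counts of 460, 264 and 642 in SNEB and 22.5, 61.7 and 29.8 in MNEB (log2 fold change 3.75 ± 0.64 SE). CD86 (3.08), MSR1 (2.95), CD209 (2.69) and FCER1G (3.12) also rose on the log2 scale. Values of some markers that did not pass lay on the same side: CD68 had a log2 fold change of 2.94 and TYROBP of 2.75. Without MNEB library 3, 4 macrophage markers were called, and without MNEB library 1 or 2, 5 were. The summed normalised count of the list was between 29690 and 40050 in SNEB and between 4076 and 5814 in MNEB. FOLR2, CD86 and FCER1G each lost their call without SNEB library 1 and without any 1 MNEB library, and FOLR2 also with total reads or the upper quartile as scaling, with no filter and in the fit on 15 libraries.

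MPEG1, which encodes the pore-forming perforin-2 of phagocytes, was among the 12 genes with the largest change upwards. Its counts were 2969, 2000 and 4562 in SNEB against 175, 452 and 257 in MNEB, a 12.0-fold difference. C3AR1, the receptor for complement fragment C3a, had counts of 567, 427 and 976 in SNEB against 20.6, 82.3 and 62.3 in MNEB (log2 fold change 4.01 ± 0.62 SE, adjusted p = 0.00347). The lowest SNEB library of either gene was above the highest MNEB library. C3AR1 lost its call without SNEB library 1, without any 1 MNEB library and with no filter, and the C3AR1 log2 fold change was 3.08 without MNEB library 1. MPEG1 lost its call without SNEB library 1, MNEB library 1 or MNEB library 3.

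Genes for antigen presentation by MHC class II followed the same direction. Of 12 members tested, 4 were called higher, 0 lower, and the median log2 fold change was 2.08. BOLA-DRA, the alpha chain of the class II DR dimer, had counts of 2379, 4391 and 4666 in SNEB and 624, 653 and 788 in MNEB, which is 5.43-fold higher. CD74, the chaperone of class II molecules, rose by 2.20 on the log2 scale, BOLA-DQA2 by 2.07 and CTSS, the cathepsin that trims CD74, by 2.34. Class II genes lie in families of similar sequence, so reads may be shared or lost between them. Without MNEB library 3, 0 members were called, and without MNEB library 1 or 2, 2 were, although the median over the list stayed between 1.88 and 2.21 whichever library was left out.

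Of 24 complement genes tested, 9 were called higher and 0 lower, with a median log2 fold change of 2.05. C3, the hub of the cascade, had counts of 1748, 2601 and 4312 in SNEB and 319, 401 and 493 in MNEB, a 7.08-fold difference. The proteases C1S (2.60) and C1R (2.03), C2 (2.17) and the adipocyte protease CFD (2.45), also known as adipsin, rose on the log2 scale. So did the regulators SERPING1 (2.08) and CLU (2.17). Without MNEB library 3, 3 complement genes were called, and without MNEB library 1 or 2, 5 were. The chains of C1q, which begin the classical pathway, had 0 reads in the entire gene analysis of these 6 libraries and therefore could not be called. On exons alone, C1QA had counts of 5520, 5144 and 7542 in SNEB and 287, 769 and 371 in MNEB (log2 fold change 3.87 ± 0.37 SE, adjusted p = 0.000543). C1QB was 13.2-fold and C1QC 10.9-fold higher in SNEB by the same measure, an analysis of 120 such genes that was added after the values were seen.

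**Figure D3:**
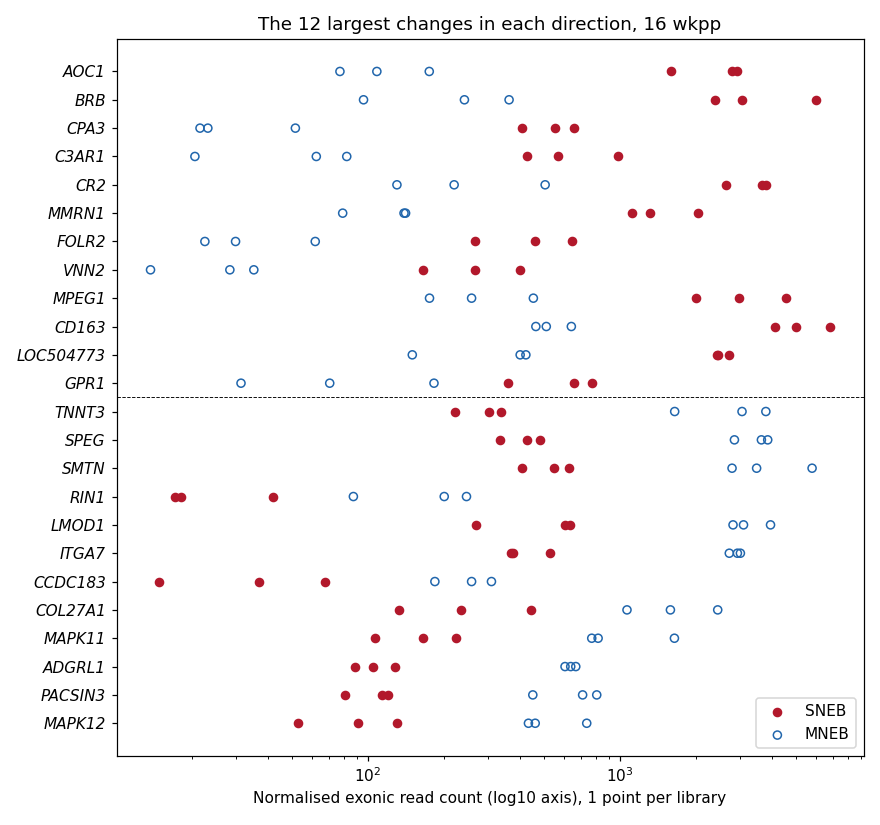
Normalised exonic read count (log10 axis) of the 12 genes with the largest change in each direction among called genes with a mean count of at least 100, with 3 SNEB (filled) and 3 MNEB (open) libraries. Groups do not overlap for any of the 24 genes, as the rule required, and directions are relative to gene reads.

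The mast cell list also holds genes of histamine breakdown and of secretory granules (AOC1 and SRGN), which are not particular to mast cells. Of its 18 genes, 10 were tested, 5 were called higher and 0 lower, with a median log2 fold change of 2.70. CPA3, the carboxypeptidase of mast cell granules, had counts of 655, 407 and 554 in SNEB and 21.5, 23.1 and 51.5 in MNEB, an 18.9-fold difference on exons (adjusted p = 0.000557, log2 fold change 4.24 on exons and 3.58 on the entire gene). KIT, the receptor for stem cell factor, had counts of 1636, 1545 and 1853 in SNEB against 276, 224 and 395 in MNEB, which was 5.85-fold higher. AOC1, the diamine oxidase that breaks down histamine, showed the largest log2 fold change among called genes with a mean count of at least 100 (4.51 ± 0.36 SE), with counts of 2912, 2780 and 1590 in SNEB and 77.3, 175 and 108 in MNEB. TPSB2, a tryptase with close copies, had a log2 fold change of 3.23, and SRGN, the proteoglycan core of secretory granules, one of 1.73. Without MNEB library 1 or 3, 2 genes of the list were called, and CPA3 was not among them. HDC, which makes histamine, had a log2 fold change of 0.82 ± 1.11 SE and no read in 1 MNEB library, and GATA2, a transcription factor of mast cells, had one of -0.75. Neither passed.

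Among 9 lymphatic endothelial genes tested, 2 were called higher and 0 lower. MMRN1, multimerin 1 of lymph vessels and platelets, had counts of 2029, 1316 and 1115 in SNEB and 79.3, 139 and 141 in MNEB, a 13.7-fold difference on exons (log2 fold change 3.78 on exons and 3.18 on the entire gene). LYVE1, the hyaluronan receptor that macrophages also carry, was 7.61-fold higher. Both were called without each library in turn. PROX1, the factor that sets lymphatic identity, did not pass (log2 fold change 0.95 ± 0.30 SE, adjusted p = 0.043 on exons). CCL21, the chemokine that draws CCR7-bearing cells into lymph vessels, had 289, 212 and 839 exonic reads in the SNEB libraries and 2, 1 and 8 in the MNEB libraries. Groups did not overlap, but the test was not passed (adjusted p = 0.052 on exons), and its receptor CCR7 had counts of 18.7, 8.57 and 18.1 in SNEB and 3.91, 10.3 and 2.71 in MNEB. On exons both genes met the filter of 10 reads through the SNEB libraries alone. Genes at this level enter the test more easily when higher in SNEB.

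CR2, the complement receptor of B cells and follicular dendritic cells, was the only B cell marker called of 10 tested. Its counts were 3636, 2625 and 3803 in SNEB against 130, 504 and 219 in MNEB, a 15.5-fold difference. The median of the B and plasma cell list was -0.34. Of 18 T and NK cell markers tested, 0 were called by limma-voom and 6 had an unadjusted p-value below 0.05, with a median of 1.03. A gene needed 10 reads in 3 libraries, which the SNEB libraries, with more gene reads, could meet alone. Genes with few reads thus entered more easily when higher in SNEB, and the effect on this median was not tested. The summed count of the T and NK list was 673 to 1419 in SNEB and 450 to 638 in MNEB, so the groups did not overlap but lay close to each other. CR2 lost its call without MNEB library 3, and the CR2 log2 fold change was 3.30 without MNEB library 1.

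Among 32 proteoglycan, fibrillin and matricellular genes tested, 7 were called higher and 0 lower, with a median log2 fold change of 1.02. Without SNEB library 1, MNEB library 1 or MNEB library 3, 4 were called. FBN1, the main chain of microfibrils, had counts of 94270, 60930 and 93810 in SNEB and 20680, 13070 and 20740 in MNEB, a 4.65-fold difference (adjusted p = 0.00118). MFAP5, a microfibril protein, had counts of 11160, 6646 and 9477 in SNEB and 959, 1157 and 1617 in MNEB, which is 7.33-fold higher. EFEMP1 (3.13), FBLN5 (2.30), DCN (2.20), FMOD (2.08) and MFAP2 (1.88) rose on the log2 scale. FN1 had counts of 72800, 51900 and 170500 in SNEB and 32970, 5470 and 23090 in MNEB and did not pass (adjusted p = 0.059). Of 21 genes of stromal progenitors tested, THY1 (4.36-fold) and NT5E (log2 fold change 1.55) were called higher and 0 were called lower, and neither was called without MNEB library 1.

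Of 15 collagens tested, 0 were called higher and 2 lower (0 without MNEB library 3), with a median log2 fold change of -0.83. COL27A1, a fibrillar collagen of cartilage and other tissues, had counts of 234, 132 and 443 in SNEB and 1582, 1064 and 2437 in MNEB, 6.68-fold lower in SNEB. It was called only without SNEB library 3 among the fits without 1 library, and not under upper quartile scaling or with no filter. COL18A1, a basement membrane collagen, had counts of 2501, 3972 and 4467 in SNEB and 10970, 13050 and 13350 in MNEB. COL1A2, a chain of the most abundant collagen of fat, had counts of 43420, 56190 and 224700 in SNEB and 19840, 13760 and 26990 in MNEB and did not pass (adjusted p = 0.0329 on exons). COL1A1 and COL3A1 were not analysed here.

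Of the genes of smooth muscle and pericytes, all 24 tested had a negative log2 fold change, with a median of -1.43, and 5 were called lower, 0 higher. SMTN, the smoothelin of contractile cells, had counts of 628, 408 and 548 in SNEB and 2778, 5771 and 3477 in MNEB, 7.5-fold lower in SNEB (adjusted p = 0.00054). LMOD1, a leiomodin that nucleates actin, had counts of 631, 605 and 269 in SNEB against 3085, 3948 and 2803 in MNEB. TPM1, CSPG4 and MYLK fell by 2.00, 1.98 and 1.51 on the log2 scale. MYH11, the smooth muscle myosin, had counts of 6306, 4454 and 1489 in SNEB and 29790, 15350 and 10180 in MNEB and did not pass (adjusted p = 0.0296). ACTA2 had a log2 fold change of -1.63 ± 0.56 SE and did not pass either. Leaving out any 1 library left 3 or 4 called members. The summed count of the list was 31850 to 48030 in SNEB and 71380 to 136100 in MNEB.

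Genes of the striated muscle list that could be tested were few, 11 of 34, and 5 of them were called lower. TNNT3, a troponin T of fast muscle, had counts of 303, 335 and 221 in SNEB and 1645, 3043 and 3783 in MNEB, 9.69-fold lower in SNEB on exons (log2 fold change -3.28 ± 0.30 SE). On the entire gene its log2 fold change was -1.80. SPEG, a kinase of striated and smooth muscle, had counts of 428, 482 and 332 in SNEB and 2839, 3848 and 3632 in MNEB, an 8.41-fold difference. LDB3, TCAP and MYOM1 fell by 3.07, 1.83 and 1.49 on the log2 scale. Defining genes of skeletal muscle fibres had few reads in all 6 libraries: ACTA1 had 0 to 32 exonic reads, MYH1 0 to 8, CKM 0 to 5 and MYLPF 0 to 1. KRT5 and KRT14 of keratinocytes had 0 to 4 reads and HBA of erythrocytes 0 to 1, while KRT10 of keratinocytes had 0 to 45. HBB, the beta globin chain and the only erythrocyte gene tested, had counts of 10.9, 11.0 and 10.3 in SNEB and 15.7, 54.0 and 75.8 in MNEB, without overlap, and did not pass (log2 fold change -1.53 ± 0.62 SE, adjusted p = 0.101). Without MNEB library 3, 2 genes of the striated muscle list were called. Among the fits without 1 library, TNNT3 was called only without MNEB library 1 and LDB3 only without SNEB library 1.

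Genes of the actin cytoskeleton and of cell adhesion were mostly on the lower side. Of 30 tested, 24 had a negative log2 fold change, 11 were called lower and 0 higher, with a median log2 fold change of -0.87. ITGA7, the laminin receptor of muscle cells, had counts of 375, 368 and 528 in SNEB and 2709, 2917 and 2998 in MNEB, 6.89-fold lower in SNEB (adjusted p = 0.000244). ARHGEF17, a guanine nucleotide exchange factor, had counts of 997, 906 and 941 in SNEB and 3883, 3694 and 3883 in MNEB, with little spread within a group. EPHA2, ACTN1, FLNA, ACTN4, TNS1, MYH9, ITGA3, ITGA5 and SPTAN1 fell by between 1.09 and 1.99 on the log2 scale. SPTBN1, the member with the highest count, had a log2 fold change of -0.32 ± 0.25 SE. Leaving out any 1 library left 6 or 7 called members.

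**Figure D4:**
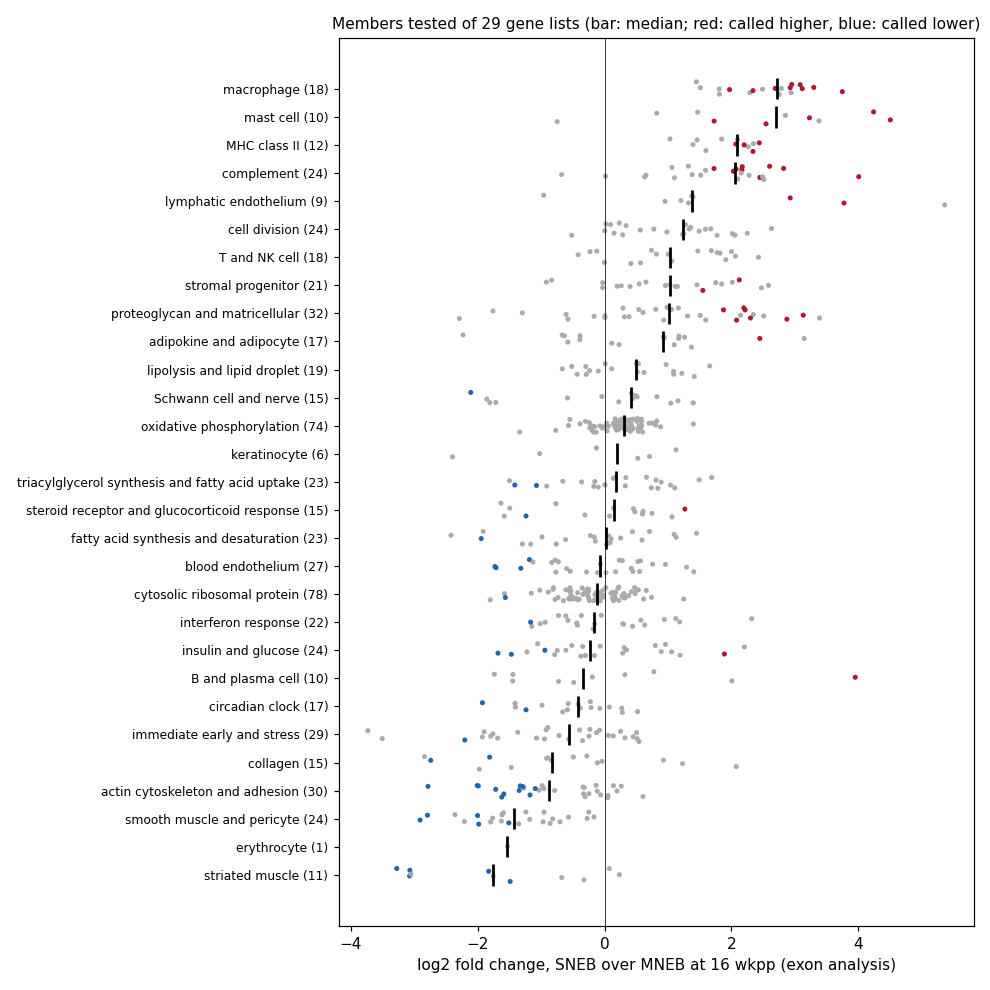
Exonic log2 fold change of SNEB over MNEB at 16 wkpp for the tested members of 29 gene lists (number tested in brackets), ordered by median (bar), relative to gene reads. Red points were called higher and blue points called lower. The macrophage, mast cell, MHC class II and complement medians lie above 2, and the smooth muscle and striated muscle medians below -1.4, as does the erythrocyte list of 1 gene.

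MAPK11 and MAPK12, kinases of the p38 family, fell by 2.65 and 2.57 on the log2 scale, with MAPK11 counts of 165, 223 and 106 in SNEB and 771, 817 and 1641 in MNEB. ADGRL1, a latrophilin receptor, had counts of 104, 88.8 and 128 in SNEB and 666, 604 and 636 in MNEB. PACSIN3, a membrane-curving adaptor of endocytosis, RIN1, a regulator of Ras and Rab5, and CCDC183 had log2 fold changes of -2.57, -2.88 and -2.75. On the side of the rise, BRB, a secreted ribonuclease with close copies, had counts of 5956, 2385 and 3031 in SNEB and 95.9, 362 and 241 in MNEB, a 20.4-fold difference. VNN2, a vanin of the cell surface, was 12.1-fold, LOC504773 9.76-fold and GPR1, a chemerin receptor, 9.64-fold higher in SNEB on exons. On the entire gene the VNN2 log2 fold change was 2.71, against 3.59 on exons. Several of these calls were lost without 1 library. GPR1 was called only without MNEB library 2, and not by limma-trend or with no filter. VNN2 was lost without SNEB library 1 or any 1 MNEB library, with total reads or upper quartile scaling, with no filter and in the fit on 15 libraries. BRB was lost without SNEB library 3 or MNEB library 3. Without MNEB library 1 the BRB log2 fold change was 3.56, the GPR1 log2 fold change 2.30, the VNN2 log2 fold change 2.99 and the LOC504773 log2 fold change 2.61. MAPK11 was lost without SNEB library 1, SNEB library 3 or MNEB library 2, MAPK12 without SNEB library 1, MNEB library 2 or MNEB library 3, and PACSIN3 without MNEB library 3. RIN1 and CCDC183 were each lost in 4 of the 6 fits.

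NOS3, the endothelial nitric oxide synthase, had counts of 272, 271 and 268 in SNEB and 758, 1033 and 950 in MNEB. ROBO4, EGFL7 and TIE1 fell by 1.71, 1.32 and 1.18 on the log2 scale. In the blood endothelium list 4 of 27 tested were lower and 0 higher, and the median was -0.07, close to that of all genes (0.17 without SNEB library 1). Without SNEB library 1, MNEB library 2 or MNEB library 3, 1 was called. Values of PECAM1 (log2 fold change 0.28 ± 0.23 SE), CDH5 (0.02 ± 0.23 SE) and VWF (-0.60 ± 0.21 SE) did not pass.

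In the list of fatty acid synthesis, 1 of 23 was lower and 0 were higher, which is near the 3.73% of all genes called lower. The median was 0.03 on exons (-0.04 on the entire gene, -0.015 with total reads as library size). MLXIPL, which encodes the glucose-responsive factor ChREBP, had counts of 76.9, 92.4 and 87.7 in SNEB and 365, 362 and 249 in MNEB, 3.85-fold lower in SNEB, a call lost without MNEB library 1 or 2. SCD, the desaturase that makes oleate, had counts of 5491, 3944 and 71900 in SNEB and 17900, 2637 and 9865 in MNEB. One SNEB library stood far above the rest, and the log2 fold change of 0.71 ± 1.20 SE became -0.64 without it and -0.10 without MNEB library 2. FASN counts ranged from 1500 to 17510 in SNEB and from 2000 to 22510 in MNEB.

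In triacylglycerol synthesis and fatty acid uptake, 2 of 23 genes were called lower and 0 higher, and at most 1 was called when any 1 library was left out. Of the 23, 14 had a positive and 9 a negative log2 fold change, with a median of 0.17. DGAT1, which adds the last acyl chain, had counts of 373, 447 and 410 in SNEB and 821, 784 and 1007 in MNEB, 2.10-fold lower in SNEB. SLC27A1, a fatty acid transporter, was 2.67-fold lower. Of 19 genes of lipolysis and the lipid droplet tested, 0 were called by limma-voom, with 7 at an unadjusted p-value below 0.05. When 1 library was left out, 0 to 2 of them were called. The median log2 fold change of the list was 0.50, and -0.03 without MNEB library 3. LIPE, the hormone-sensitive lipase, had counts of 4421, 4059 and 4220 in SNEB and 9066, 4061 and 1969 in MNEB, and CIDEC, a droplet fusion protein, had a log2 fold change of 1.66 ± 0.36 SE (adjusted p = 0.0123). SLC2A4, the insulin-responsive glucose transporter, had counts of 79.0, 130 and 85.2 in SNEB and 242, 319 and 255 in MNEB, 2.77-fold lower in SNEB. Also lower in the insulin and glucose list were AKT1 (log2 fold change -0.94) and PC, the pyruvate carboxylase (-1.68), and IGFBP3, the main carrier of IGF1, was 3.71-fold higher, among 24 tested. Of these 4 calls, 0 were left without MNEB library 2 or 3 and at most 2 without any other 1. Of 17 adipokine and adipocyte genes tested, CFD alone was called, and not without any 1 MNEB library.

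Among the other lists, PER2 and PER1 of the circadian clock were lower in SNEB, with PER2 counts of 758, 1322 and 890 against 3227, 4732 and 3174 in MNEB (3.80-fold), although neither was called without any 1 MNEB library. The hour of sampling is not given in the sources used here. NR4A1, an immediate early gene, was 4.60-fold lower, the only call among 29 genes of that list. IRF7 fell by 1.17 on the log2 scale, the only call of 22 interferon response genes. Over all genes tested 3.73% were called lower, and 1 call of 22 or 29 is near that share. CDH19 of Schwann cells had counts of 20.3, 31.8 and 25.2 in SNEB and 90.0, 113 and 160 in MNEB and was the only call of 15 nerve genes. Of these 15, 9 had a positive and 6 a negative log2 fold change on exons, with a median of 0.42. RPS25, a gene with processed copies, was lower (log2 fold change -1.56 ± 0.25 SE), the only call of 78 ribosomal protein genes (9 calls without MNEB library 1, 0 without any other 1). The calls of ESR1, IRF7, NR4A1, RPS25 and CDH19 depended on single libraries. CDH19 was lost without SNEB library 1, MNEB library 1 or MNEB library 3. IRF7 and ESR1 were not called in any of the 6 fits without 1 library, and NR4A1 and RPS25 were called in 1 of the 6. Of 74 subunits of oxidative phosphorylation and 24 genes of cell division, 0 were called, with 22 and 6 at an unadjusted p-value below 0.05 and medians of 0.30 and 1.24. Genes with few reads entered the test more easily when higher in SNEB, and the effect on these medians was not tested. The steroid receptor and glucocorticoid list held 1 gene called higher (ESR1) and 1 called lower (PER1) of 15 tested. Of 6 keratinocyte genes tested, 0 were called and 2 had an unadjusted p-value below 0.05.

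Of the genes that the study names, chosen there in part on these libraries, 14 of 22 could be tested and 1 was called. ESR1, the oestrogen receptor alpha, had counts of 214, 230 and 262 in SNEB and 99.8, 69.4 and 127 in MNEB, 2.41-fold higher in SNEB (adjusted p = 0.00705). SERPINF1 had counts of 1542, 1107 and 4329 in SNEB and 179, 242 and 301 in MNEB, and passed on exons (adjusted p = 0.00463) but not on both analyses. The same held for C1QTNF1, a paralogue of adiponectin, with counts of 2186, 2586 and 3449 in SNEB and 1095, 1324 and 1208 in MNEB. BMP7 (1.24), SFRP2 (1.85), TF (1.59), POSTN (2.14), SOX10 (-1.71), AMH (-2.11), BHLHE40 (-0.58) and ITIH5 (0.23) had log2 fold changes that did not pass, and that of ITIH5 was -0.36 on the entire gene. The POSTN log2 fold change was 0.91 without SNEB library 3 and 0.95 without MNEB library 2, the TF log2 fold change 0.77 without SNEB library 3 and 2.67 without MNEB library 1, the SFRP2 log2 fold change 0.98 without SNEB library 3 and the AMH log2 fold change -2.87 without MNEB library 1. POSTN counts were 1465, 2327 and 23020 in SNEB against 1956, 182 and 2594 in MNEB. Those of AMH were 7.27, 4.90 and 5.81 in SNEB against 15.7, 48.8 and 40.6 in MNEB. MAPK10, FGF14, SNAP91, CADPS, TRPM8, STAB2 and DUSP27 had at most 18 exonic reads in any of the 6 libraries and were not tested.

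The same comparison at 1 wkpp uses other libraries. The paper describes biopsies of each animal at every time point and RNA of 3 cows per group, so the animals are likely the same. Agreement between the weeks is then no independent replication. At 1 wkpp, 0 of 10296 genes (0%) passed the same rule by limma-voom, while 3380 had an unadjusted p-value below 0.05 on exons, limma-trend called 0, library quality weights 757, and an adjusted p-value below 0.05 called 330. Of the 545 genes called at 16 wkpp, 544 were tested at 1 wkpp and 531 had the same sign there, beside 8055 of 10127 for all genes tested at both weeks. Their median absolute log2 fold change was 1.56 at 16 wkpp and 1.36 at 1 wkpp. The median standard error of genes with a mean count of at least 100 was 0.21 at 16 wkpp and 0.27 at 1 wkpp. The MNEB libraries were the ones with few gene reads and many spike-in reads at both weeks, and the title marks were reversed between them. Medians at 1 wkpp were 1.27 for the macrophage, 2.32 for the mast cell, 1.62 for the complement and 1.24 for the proteoglycan list. For smooth muscle and pericytes the median was -0.13 at 1 wkpp, where 9 of 24 genes were positive, beside -1.43 at 16 wkpp.

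**Figure D5:**
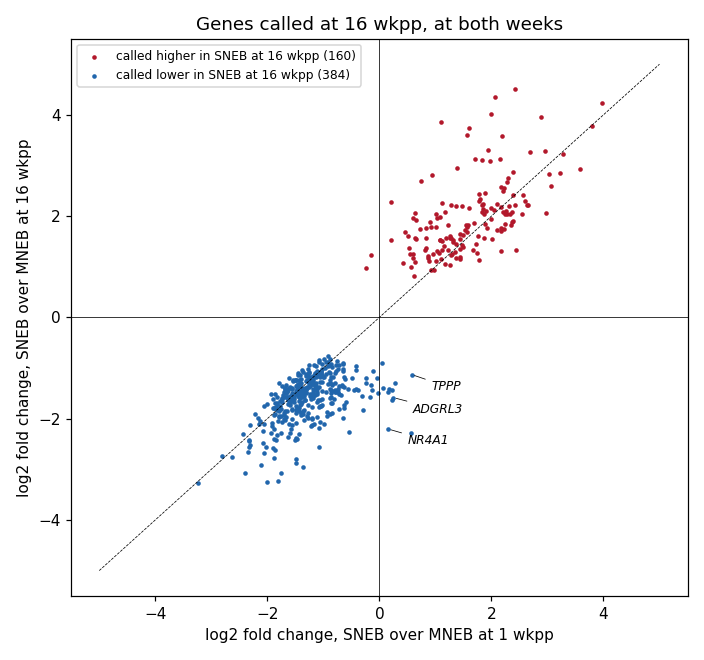
Log2 fold change of SNEB over MNEB at 16 wkpp against that at 1 wkpp (exon analysis, relative to gene reads), for 544 of the 545 genes called at 16 wkpp. The dashed line marks equal values. Of the genes shown, 531 have the same sign at both weeks, and TPPP, ADGRL3 and NR4A1 are among the 13 that do not.

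Whether the difference between SNEB and MNEB changed from 1 to 16 wkpp was tested with the interaction of group and week over 12 libraries. The fit took these libraries as independent, although the cows of both weeks are likely the same. By limma-voom, 0 of 10669 genes (0%) were called, 516 had an unadjusted p-value below 0.05 on exons, and limma-trend and library quality weights also called 0. The smallest p-value was that of TPPP, a protein that bundles microtubules. Its counts at 16 wkpp were 243, 264 and 217 in SNEB against 558, 460 and 563 in MNEB, and at 1 wkpp 458, 414 and 433 in SNEB against 350, 222 and 294 in MNEB. The order of the groups was opposite at the weeks, without overlap at either, and the interaction was -1.69 ± 0.27 SE (adjusted p = 0.238). LEP, the satiety hormone of adipocytes, followed with an interaction of -4.70 ± 0.87 SE (adjusted p = 0.428). At 16 wkpp its counts were 41.6, 8.57 and 12.9 in SNEB against 154, 36.0 and 48.8 in MNEB, so the groups overlapped, and at 1 wkpp the SNEB libraries had 424, 629 and 420.5 and the MNEB libraries 57.4, 119 and 176.5. The 3 libraries at -4 wkpp had LEP counts of 1458, 1007 and 1386. ADGRL3, KCTD10 and LBH had interactions of -1.84, -1.18 and -1.46.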

How the data were processed

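RNA was measured by ribosomal RNA-depleted, stranded, single-read sequencing of 15 libraries in 5 groups of 3. Per the paper's methods, the authors trimmed reads with cutadapt 1.3, aligned them to bosTau8 with TopHat2, counted them with htseq-count over exons and over entire genes, and compared groups with DESeq2. Each of the 6 deposited comparison tables gives, per gene, the authors' mean normalized count over both groups, in which libraries are pooled. The other deposited columns hold the authors' log2 fold change, its standard error, a test statistic score, a p-value and an adjusted p-value, and were not used. There were 0 columns of other samples.

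Whole reads per library were recovered as whole numbers that give the deposited means in all 6 tables within rounding of the printed digits. That no other whole numbers do so was not proven. This succeeded for 13658 of 13661 genes with exonic reads (not COL1A1, COL3A1 and RN7SL1) and for 13350 of 13353 with reads on the entire gene (not COL3A1, EBF1 and RN7SL1). Libraries could not be tied to single samples of a group and are numbered by falling size factor, a name only. Normalised counts are exonic reads over median-of-ratios size factors of the 15 libraries. Genes with at least 10 reads in at least 3 of the 6 libraries in both analyses were tested with limma 3.58.1 (voom, robust moderation, R 4.3.3) on the 6 libraries, and called where both analyses gave a Benjamini-Hochberg adjusted p-value below 0.01 and 1 sign. Some genes with many exonic reads had no read in the entire gene count, and the cause was not tested. As the SNEB libraries held more gene reads, genes with few reads passed the filter of 10 reads more easily when higher in SNEB. The scripts were tested on simulated data.

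Members and gene lists were chosen with earlier results of these data known. Named genes are the 12 largest changes in each direction among called genes with a mean count of at least 100 and no overlap, the genes the study names, up to 4 called members and the most abundant member of each list, and the 5 smallest p-values of the interaction. Other list members and markers were named after their values were seen. The p-values measure the spread between 3 libraries a group, and recovered reads carry counting error. Alternatives were the exon or entire gene analysis alone, an adjusted p-value below 0.05, other scalings, other filters, limma-trend, library quality weights, a fit on 15 libraries and leaving out each library. Scaling to spike-ins, the comparison at 1 wkpp with its limma-trend interaction, and a filter on exonic reads alone were added after seeing the data.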

Additional observations from a re-analysis of the deposited data

Results flagged for a closer look

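Spike-in reads, which enter the gene results only in the alternative scaling, were 16.2 times as frequent per exonic gene read in the MNEB as in the SNEB libraries at 16 wkpp. The groups did not overlap, and with 3 libraries each the exact permutation test could not go below p = 0.1. The spike-in share moved with the group at both weeks, and its part in the gene results was not tested.

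The difference between SNEB and MNEB in TPPP was of opposite sign at 16 and 1 wkpp, with groups apart at both, and the log2 fold change at 16 minus that at 1 wkpp was -1.69. This difference was tested and missed the threshold (limma-voom interaction, adjusted p = 0.238). Of 10288 genes compared, 16 had groups apart in opposite directions at the weeks and 2585 in the same direction. Groups of 3 libraries were too small for a search for single outlying libraries.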

How the results depend on the processing

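The 545 calls (161 higher, 384 lower in SNEB) became 1077 (353, 724) on exons alone, 1488 (519, 969) at an adjusted p-value below 0.05, 282 (82, 200) with no filter beyond 1 read, 1088 on exons alone with the exonic filter, and 9959 (9959, 0) when scaled to spike-in reads. The last 2 settings were chosen after seeing the data. Leaving out 1 library gave 113 to 429 calls, 35 to 139 higher and 78 to 290 lower. Calls higher in SNEB were 29.5% of all calls, and from 18.4% (without MNEB library 1) to 37.3% (without SNEB library 1) when 1 library was left out. Under the other planned settings the count was 509 to 702, and no called gene changed sign under any planned setting.

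The sign turned for some genes that were not called and for some list medians. On the entire gene the log2 fold change was -0.358 for ITIH5, 0.125 for CD247 and -0.239 for ITGB1, and the medians were -0.041 for fatty acid synthesis and -0.191 for Schwann cells. With total reads as library size the fatty acid median was -0.015. Leaving out 1 library gave an SCD log2 fold change from -0.642 (without SNEB library 3, and -0.096 without MNEB library 2) to 1.514, and medians from -0.366 to 0.118 for fatty acid synthesis (lowest without SNEB library 3, and -0.345 without MNEB library 2), -0.007 to 0.402 for triacylglycerol synthesis (lowest without MNEB library 2), -0.194 to 0.167 for blood endothelium (highest without SNEB library 1), -0.086 to 0.528 for Schwann cells (lowest without MNEB library 2, and -0.023 without SNEB library 3), -0.406 to 0.045 for ribosomal proteins (highest without MNEB library 2), -0.135 to 0.518 for steroid receptors (lowest without SNEB library 2, and -0.07 without SNEB library 1) and -0.356 to 0.212 for the interferon response (highest without MNEB library 1). The medians of lists without calls turned too, to -0.031 for lipolysis (without MNEB library 3) and to -0.056 for keratinocytes (without MNEB library 3), which were also negative on the entire gene. The cause was not tested.

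No paired analysis was possible because the recovered libraries carry no replicate number from the labels. The number of gene reads differed between the groups, and its effect on the calls was not tested.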

Other observations

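Lysosomal genes, a list written after the values were seen, had 62 of 65 members tested, of which 17 were called higher in SNEB and 0 lower. Of them 58 were positive, with a median log2 fold change of 1.09. The called genes held the cathepsins CTSS, CTSV, CTSK, CTSB and CTSD, which digest proteins in the lysosome, and PSAP, the precursor of the saposins that help to break down sphingolipids. As the list was written with these values in view, its count is a description, beside 1.56% of all genes called higher, and CTSS is also counted among the macrophage and MHC class II genes. Of 28 MAP kinase cascade genes tested, a list written around the called MAPK11 and MAPK12, 10 had a positive log2 fold change, the median was -0.29 and 4 were called lower, including the genes it was written around, so that the count supports nothing.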
